A study of Arabidopsis thaliana with 12 samples.

Results

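Low light was set against normal light in wild-type seedlings of Arabidopsis thaliana, with every measured gene as a member. The comparison used 6 of the 12 RNA-seq libraries of the series. In low light there were 3 libraries of Col-0, the standard laboratory accession, grown at 30 µmol s-1 m-2, and in normal light 3 libraries of Col-0 grown at 130 µmol s-1 m-2. The other 6 libraries are the same pair of light levels in atrx-2, a mutant of the ATRX gene for a chromatin remodeller, and they serve here as libraries outside the wild-type contrast. All groups were whole seedlings aged 10 days, raised in a greenhouse at 21 °C in long days of 16 h light and 8 h dark. The deposited tables list 33602 genes, of which 20783 passed the filter on low counts and were tested. The labels number the replicates and do not state separate cultures, so the p-values speak only for the spread among libraries, which can be technical in origin. That spread was estimated from all 12 libraries, those of atrx-2 included. The hour of harvest is not given in the sources used here.

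A plant in dim light receives fewer photons per chlorophyll and fixes less carbon. Acclimation to such light is known for a larger light-harvesting antenna and a smaller investment in carbon fixation, and photoreceptors, the circadian clock and sugar signals all feed into gene expression in the shoot. Starch made in the day is broken down at night by a dedicated set of chloroplast enzymes, many of which are under clock control. Strong light in contrast is known to induce flavonoid pigments, heat shock proteins and enzymes that remove reactive oxygen.

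Library totals were 13733302 to 18568251 estimated counts in low light and 17521489 to 23899191 in normal light. The first principal component of all 12 libraries carried 54.9% of the variance, with no overlap between the light levels along it. Ribosomal RNA loci took 11.1%, 11.4% and 16.7% of counts in low light, against 6.26%, 6.87% and 5.94% in normal light. Chloroplast genes took 4.83%, 5.93% and 8.90% of counts in low light, against 3.43%, 3.36% and 3.37% in normal light. Both shares moved with the light level, and their part in the light contrast was not tested beyond a fit without these genes. That fit called 7115 genes, 3565 higher and 3550 lower, against 3449 higher and 3664 lower with these genes kept. The ATRX gene itself had 38.1, 37.2 and 45.5 CPM in low light, against 38.4, 40.8 and 35.1 CPM in normal light. Its wild-type values overlapped, and in atrx-2 it had 0.399, 0.405 and 0.712 CPM in low light, against 1.02, 0.932 and 0.799 CPM in normal light. In bulk seedlings, fewer cells of a type and less RNA per cell cannot be told apart.

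Over the 20783 genes tested, 7113 passed edgeR's quasi-likelihood test at a Benjamini-Hochberg adjusted p under 0.05, which is 34.2% of them. Among these, 3449 genes rose in low light (16.6%) and 3664 fell (17.6%). Most changes were modest, since 1990 of the rises and 1709 of the falls were under 1.5-fold. At least 2-fold rises numbered 611 (2.94% of the genes tested) and at least 2-fold falls 891 (4.29%). Changes of 4-fold or more were seen in 114 rises and 189 falls. The low-light and normal-light values of wild type did not overlap in 9491 genes, or 45.7%. The median log2 fold change of low over normal light over all genes lay at 0 after rounding, so a list's median can be read against 0. In what follows, values with ± in brackets are such log2 fold changes with their SE, medians of lists are on the same scale, and single values in brackets are log2 fold changes of genes that did not pass.

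**Figure D1:**
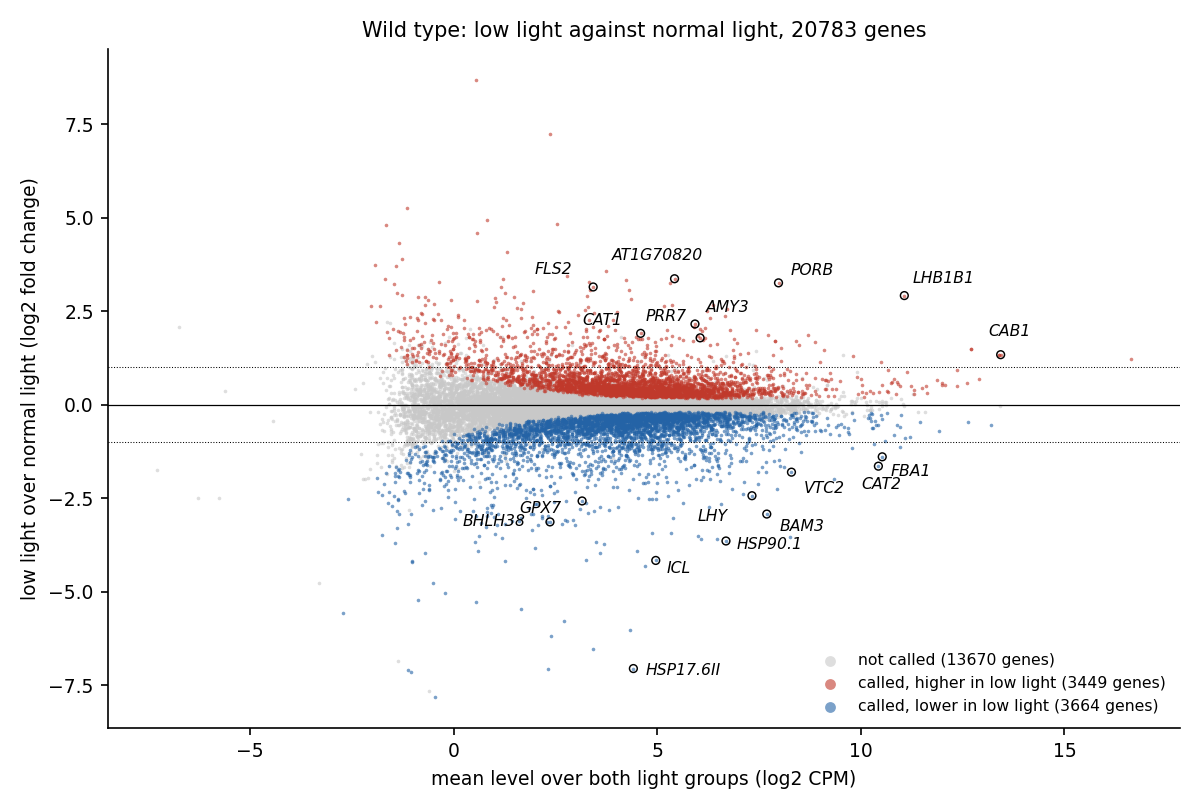
Log2 fold change of low over normal light in wild type (vertical axis) against the mean level (horizontal axis, log2 CPM) for the 20783 genes tested, with 3 libraries in low light and 3 in normal light. Red and blue points passed the test, 3449 higher and 3664 lower, dotted lines mark 2-fold, and circles mark named genes such as AMY3 and LHY.

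The largest rises by the naming rule, which took called genes that reached 5 CPM in either light level and did not overlap, included enzymes, transporters and receptors. CPM are counts scaled to a common library total. The putative phosphoglucomutase AT1G70820 had 81.9, 76 and 77.4 CPM in low light, against 7.84, 8.69 and 6.36 CPM in normal light (3.37 ± 0.10, adjusted p = 6.06e-11). PMT6, a sugar alcohol and monosaccharide transporter, had 72.6, 82.8 and 59.3 CPM in low light, against 5.96, 9.13 and 7.53 CPM in normal light (3.25 ± 0.30, adjusted p = 1.62e-06). FLS2, the receptor for bacterial flagellin, had 15.5, 23.5 and 19.2 CPM in low light, against 0.917, 2.67 and 2.83 CPM in normal light (3.15 ± 0.32, adjusted p = 3.47e-06). That every low-light library was above every normal-light library in these genes follows from the naming rule.

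Other rises of this size were CHX16, a cation/H+ exchanger (3.06 ± 0.18), Fes1B, a relative of the chaperone cofactor FES1A (3.29 ± 0.22), and the 2-oxoglutarate-dependent oxygenase AT5G43440 (3.44 ± 0.20), a gene overlapped by another on the opposite strand. The annotated lipid transfer protein AT4G22470 rose (4.82 ± 0.73) but lies wholly within a gene on the opposite strand, and whether the counting used strand is not given, so its reads could belong to either. AT4G06477 (3.59 ± 0.72), which is uncharacterized, and AT3G62550 (3.07 ± 0.20), of the adenine nucleotide alpha hydrolase family, completed the group together with AT4G16870, PORB and LpxC1. LpxC1 (7.23 ± 1.55) holds no 31-base word that occurs only once in the genome. Its reads could have been divided differently between copies, and limma-voom gave it an adjusted p of 0.127.

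Among the largest falls, 4 were the small heat shock protein genes HSP17.6II, AT1G53540, HSP17.6A and HSP17.4, whose values stand with the heat shock list. AT3G29970, of the B12D family, had 3 counts over the low-light libraries and 637 over the normal-light libraries, a ratio of normal over low light of 150 with a 95% counting interval of 51.2 to 731. ICL, isocitrate lyase of the glyoxylate cycle, had 4.64, 1.25 and 3.99 CPM in low light, against 36.6, 80.2 and 60.9 CPM in normal light (-4.16 ± 0.33, adjusted p = 3.52e-07). ATSDI1, a gene induced by sulfur deficiency, had 0.615, 1.65 and 0.763 CPM in low light, against 25.8, 15.9 and 11.9 CPM in normal light (-4.14 ± 0.37, adjusted p = 1.17e-06). The lack of overlap in these genes follows from the naming rule.

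SAG29, a sucrose transporter gene of the SWEET family known from senescing leaves, had 1.57, 1.52 and 1.19 CPM in low light, against 27.3, 21.2 and 19.7 CPM in normal light (-3.97 ± 0.25, adjusted p = 3.92e-08). The cysteine proteinase gene AT2G27420 fell (-4.31 ± 0.31), the Dof zinc finger factor gene AT1G26790 (-5.46 ± 0.53), and the Serinc-domain gene AT3G24460 (-3.90 ± 0.26). AT4G19430, which is uncharacterized, had 0.168, 0.0659 and 0.509 CPM in low light, against 10.8, 15.6 and 11.9 CPM in normal light (-5.79 ± 0.45, adjusted p = 2.93e-07). It was under 1 CPM in every low-light library, and its lack of overlap also follows from the naming rule.

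**Figure D2:**
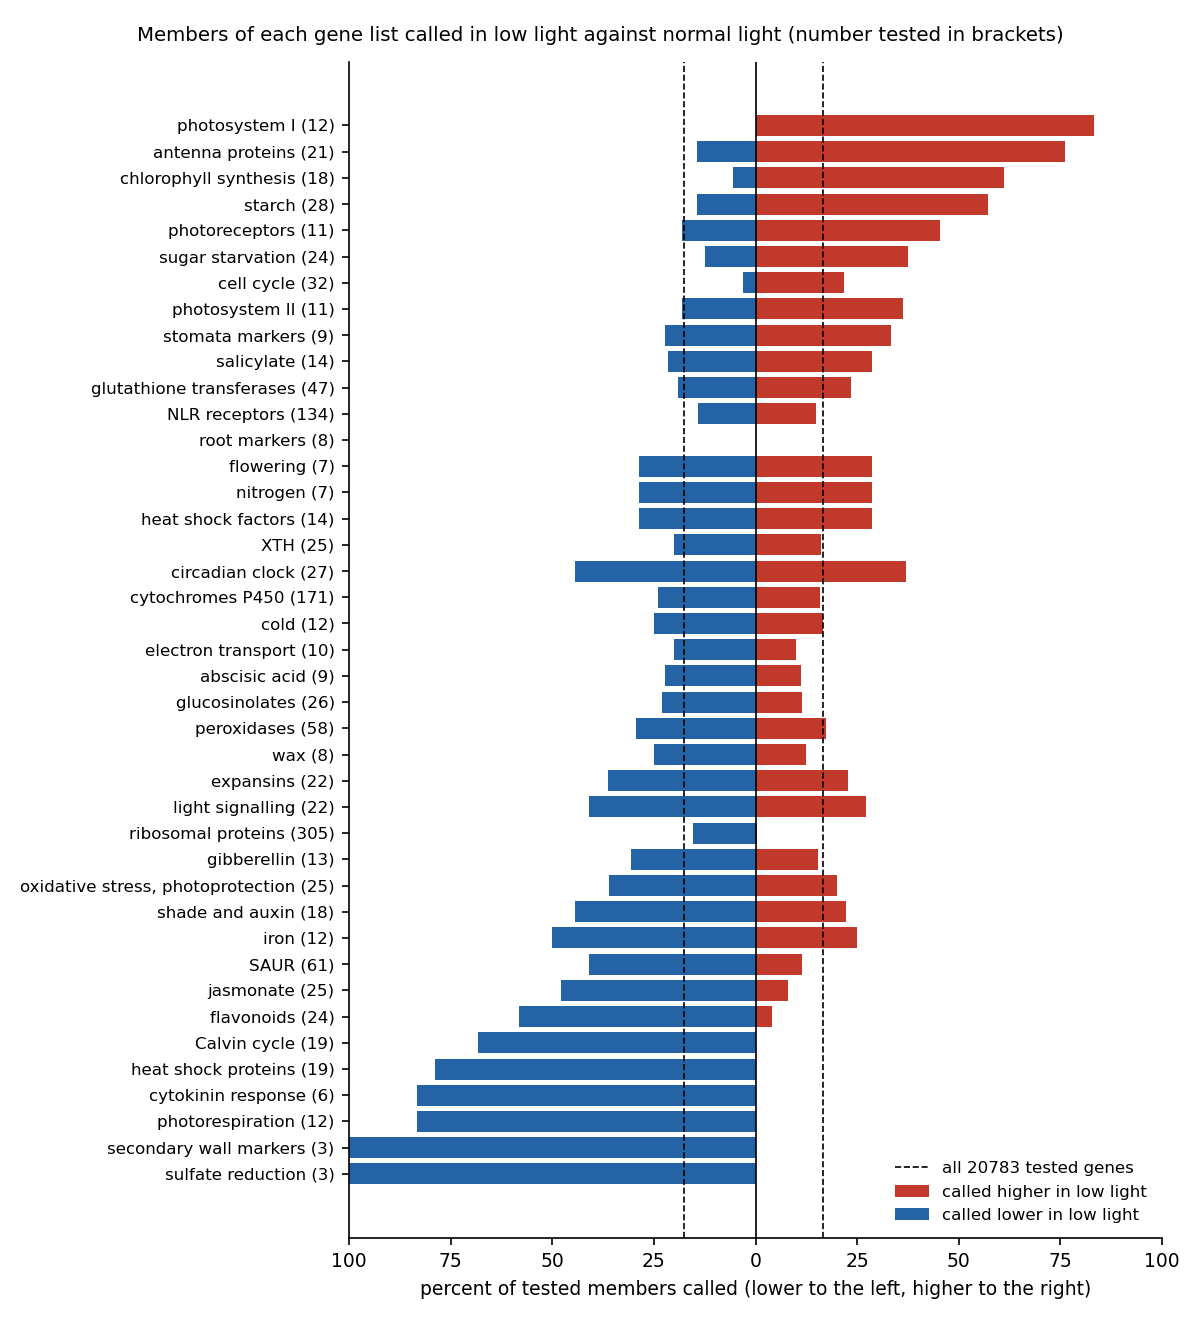
Percent of the tested members of 41 gene lists that were called in wild type, higher in low light to the right in red and lower to the left in blue, with the number tested in brackets. Dashed lines mark 16.6% higher and 17.6% lower over all genes, photosystem I (10 of 12 higher) has the longest bar to the right, and sulfate reduction and secondary walls (3 of 3 lower each) have the longest to the left, ahead of photorespiration (10 of 12) and the cytokinin response (5 of 6).

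Most antenna and photosystem I genes rose, and most genes of carbon fixation and photorespiration fell. Of 21 antenna genes, whose products bind chlorophyll and pass energy to the reaction centres, 16 rose and 3 fell, with a median of 0.50. The exceptions were LHCB4.3, an isoform of the CP29 antenna protein, with 13.3, 8.9 and 8.74 CPM in low light, against 50.5, 58 and 47.9 CPM in normal light (-2.32 ± 0.15, adjusted p = 6.81e-08), and LHCB7 (-1.38 ± 0.11) and LHCA6 (-0.36 ± 0.09). LHCB4.3 thus stood far below its normal-light level while LHCB4.1 (0.56 ± 0.07) and LHCB4.2 (0.29 ± 0.07), which encode the same antenna protein, rose. LHB1B1, which encodes an LHCB1 protein, rose (2.92 ± 0.09), and 23.5% of its 31-base words occur more than once in the genome. CAB1, which also encodes an LHCB1 protein, rose (1.34 ± 0.08), with 32.1% of its words shared. LHCB2.2 (0.29), with 40.4% shared, and LHCA5 (-0.12) did not pass.

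Of 12 nuclear genes of photosystem I, 10 rose and 0 fell, with a median of 0.37. PSAF, which docks plastocyanin, had 3036, 2893 and 2825 CPM in low light, against 1625, 1639 and 1534 CPM in normal light (0.87 ± 0.07, adjusted p = 2.91e-07). PSAO rose (0.69 ± 0.07), as did PSAE2 (0.67 ± 0.09) and PSAG (0.59 ± 0.09), the last with 61% of its length under a gene on the opposite strand, and PSAK (0.16) and PSAN (0.09) did not pass the test. Photosystem II differed in its counts, with 4 of 11 rising and 2 falling at a median of 0.10. PSBS, the sensor of photoprotective energy dissipation, fell (-0.62 ± 0.07). The other fall, PSBQ1 (-0.23 ± 0.08), was not called without the first, the second or the third low-light or the first or the second normal-light library or with the 6 wild-type libraries alone or these and a replicate block (log2 -0.24 to -0.19, adjusted p = 0.05 to 0.122). PSBQ2 and PSBO1, subunits of the oxygen-evolving complex, rose (0.38 ± 0.08 and 0.32 ± 0.07), as did PSBW (0.33 ± 0.09), while PSBR (-0.20) and PSBX (0.08) did not pass. In electron transport, 1 of 10 rose and 2 fell (30% called, near the 34.2% over all genes tested). LFNR2, a ferredoxin-NADP reductase, rose (0.85 ± 0.08) and FD1, a leaf ferredoxin, had 277, 275 and 230 CPM in low light, against 1117, 1029 and 937 CPM in normal light (-1.98 ± 0.11, adjusted p = 1.28e-08). FD2, the main leaf ferredoxin, had a log2 value of 0.07 and the plastocyanin gene PETE2 one of -0.18, neither of which passed. The second fall, PETC, the Rieske protein of the cytochrome complex (-0.22 ± 0.07), was not called without the first or the third low-light or the first normal-light library or with the 6 wild-type libraries alone or these and a replicate block (log2 -0.22 to -0.18, adjusted p = 0.0503 to 0.113). Without the third low-light or the first normal-light library, FD1 was the only fall of the list that remained.

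In chlorophyll synthesis, 11 of 18 genes rose and 1 fell, with a median of 0.27. CHLI2, a subunit of magnesium chelatase, rose (0.53 ± 0.07) and CHLP, geranylgeranyl reductase, (0.31 ± 0.08), while the chelatase subunit CHLH (0.02) and the cyclase subunit CRD1 (-0.01) did not pass. GSA2, an aminomutase of early tetrapyrrole synthesis, rose (0.49 ± 0.09). The light-dependent reductases of protochlorophyllide divided, with PORA (4.08 ± 0.30) and PORB (3.26 ± 0.20) higher and PORC (-0.28 ± 0.09) lower. Unlike PORB, PORA is absent from the largest rises, since it did not meet their rule of 5 CPM in either light level without overlap. The fall of PORC was not called without the first or the third low-light library or the first normal-light library.

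Of 19 genes of Rubisco and the Calvin cycle, 0 rose and 13 fell, with a median of -0.46. CP12-2, which binds and restrains 2 enzymes of the cycle in the dark, had 90.8, 93.8 and 89.9 CPM in low light, against 330, 276 and 269 CPM in normal light (-1.67 ± 0.11, adjusted p = 5.54e-08). FBA1, plastid aldolase, had 818, 831 and 799 CPM in low light, against 2269, 2260 and 1868 CPM in normal light (-1.39 ± 0.09, adjusted p = 4.68e-08). Both were lower in every low-light library. SBPASE, sedoheptulose bisphosphatase, fell (-0.63 ± 0.08), RCA, Rubisco activase, (-0.54 ± 0.07), and GAPA and GAPB, the subunits of plastid glyceraldehyde phosphate dehydrogenase, (-0.59 ± 0.08 and -0.54 ± 0.08). The Rubisco small subunit genes were unequal. RBCS1B and RBCS2B fell (-0.88 ± 0.12 and -0.70 ± 0.10), with 33.7% of the words of RBCS2B shared, whereas RBCS1A had 11279, 10584 and 10356 CPM in low light, against 11601, 10985 and 10330 CPM in normal light, values that overlapped (-0.03 ± 0.08, adjusted p = 0.788). GAPA2, a second gene of the dehydrogenase A subunit, did not pass (-0.07).

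Photorespiration recovers carbon from the oxygenase product of Rubisco through the chloroplast, peroxisome and mitochondrion. Of its 12 genes, 0 rose and 10 fell, with a median of -0.57. GOX1, glycolate oxidase, had 811, 865 and 824 CPM in low light, against 1849, 1728 and 1625 CPM in normal light (-1.06 ± 0.07, adjusted p = 1.02e-07). HPR1, hydroxypyruvate reductase of peroxisomes, had 515, 566 and 567 CPM in low light, against 1256, 1298 and 1113 CPM in normal light (-1.15 ± 0.09, adjusted p = 1.72e-07). The P protein genes of mitochondrial glycine decarboxylase also fell, GLDP1 (-1.13 ± 0.09) and GLDP2 (-0.73 ± 0.09), together with the H protein gene GLDH1 (-0.86 ± 0.09). The falls covered all 3 compartments of the pathway, and AGT1 (-0.14) and GLYK (-0.21) were the members that did not pass.

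The 3 catalase genes, whose enzymes remove hydrogen peroxide made in peroxisomes, went in opposite directions. CAT2 (AT4G35090), the main leaf catalase, had 622, 739 and 650 CPM in low light, against 2211, 2214 and 1845 CPM in normal light (-1.64 ± 0.09, adjusted p = 1.67e-08). CAT1 had 34.5, 42.3 and 37.7 CPM in low light, against 9.52, 9.74 and 11 CPM in normal light (1.91 ± 0.10, adjusted p = 1.09e-08), and CAT3 rose (0.69 ± 0.10). No catalase gene overlapped between the light levels. Over the 25 genes of reactive oxygen removal and photoprotection, 5 rose and 9 fell. VTC2, of ascorbate synthesis, had 148, 137 and 135 CPM in low light, against 596, 524 and 347 CPM in normal light (-1.80 ± 0.18, adjusted p = 4.08e-06). GPX7, of the glutathione peroxidase family, fell (-2.57 ± 0.19), with 31% of its length under a gene on the opposite strand. APX2, a cytosolic ascorbate peroxidase known from strong light, had 3 counts over the low-light libraries and 46 over the normal-light libraries, a ratio of normal over low light of 10.9 with a 95% counting interval of 3.49 to 54.5. These 3 genes were lowest in the low-light libraries. ELIP2, an early light-induced protein of thylakoids, fell (-1.64 ± 0.25), and CCS, the copper chaperone of superoxide dismutase, rose (0.53 ± 0.12). NPQ1, violaxanthin de-epoxidase, rose (0.79 ± 0.08), and ABA1, the epoxidase that runs the reverse step, fell (-0.39 ± 0.08). The iron superoxide dismutase gene FSD1 (-0.25) and the cytosolic ascorbate peroxidase gene APX1 (-0.04) did not pass.

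Starch genes changed in both directions, with rises in the majority. The part of the hour of harvest, which is not given, was not tested here. Of 28 tested genes, 16 rose and 4 fell, with a median of 0.32. AMY3, the plastid alpha-amylase, had 94.5, 101 and 103 CPM in low light, against 23.2, 23.2 and 20.4 CPM in normal light (2.16 ± 0.08, adjusted p = 5.43e-10). DPE1, the disproportionating enzyme of the chloroplast, had 18.3, 19.1 and 19.1 CPM in low light, against 6.01, 3.84 and 4.62 CPM in normal light (1.96 ± 0.14, adjusted p = 1.39e-07), and DPE2, its cytosolic counterpart, had 113, 113 and 111 CPM in low light, against 32, 36.6 and 29 CPM in normal light (1.79 ± 0.10, adjusted p = 9.93e-09). Each of the 3 was higher in every low-light library by 3-fold or more.

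The enzymes that add and remove phosphate on the granule surface, SEX1 (glucan, water dikinase) and SEX4 (phosphoglucan phosphatase), rose (1.60 ± 0.10 and 1.60 ± 0.15). The debranching enzymes ISA3 and LDA rose (1.37 ± 0.13 and 1.20 ± 0.11). The glucan phosphorylase genes PHS1 (AT3G29320) and PHS2 (AT3G46970), which were outside the list and were chosen after their values were seen, rose (2.57 ± 0.10 and 2.63 ± 0.08). Within breakdown the beta-amylases were the exception, since BAM3, the main leaf beta-amylase, had 45.7, 53 and 46.1 CPM in low light, against 402, 383 and 310 CPM in normal light (-2.92 ± 0.13, adjusted p = 2.71e-09) and BAM1 fell (-0.91 ± 0.11). A gene on the opposite strand covers 22% of BAM3, and strand use is not given.

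On the side of synthesis, SS4, a starch synthase needed for granule initiation, rose (1.08 ± 0.08), and APL4, a large subunit of ADP-glucose pyrophosphorylase, (0.83 ± 0.22). GBSS1, the synthase that makes amylose, had 67.9, 65.6 and 65.3 CPM in low light, against 319, 315 and 237 CPM in normal light (-2.13 ± 0.10, adjusted p = 4.62e-09). Its low-light values all lay far below those in normal light. APS1, the pyrophosphorylase small subunit, was at 0.10 and did not pass, nor did the branching enzyme gene SBE2.2 (0.13).

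**Figure D3:**
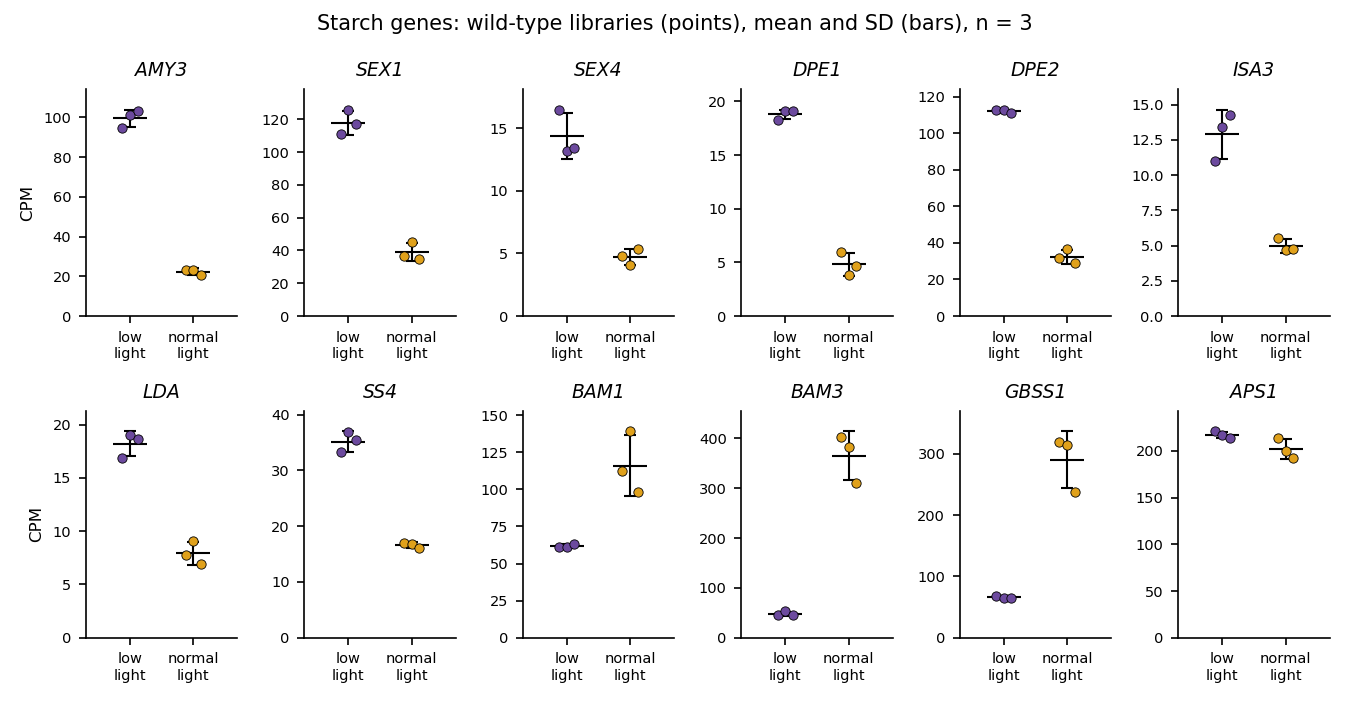
CPM (vertical axes, starting at 0) in each wild-type library for 12 starch genes, with points for libraries and bars for the mean and SD (n = 3 each), low light left of normal light. AMY3, DPE1 and DPE2 are higher in all 3 low-light libraries, and BAM3 and GBSS1 are lower in all 3.

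Genes known to be induced by darkness and lack of sugar gave a mixed result. Of 24 tested, 9 rose and 3 fell, with a median of 0.22. Without the second low-light or the first normal-light library, 4 rose. TPS10, a trehalose-6-phosphate synthase-like gene, rose (0.99 ± 0.11), GDH2, glutamate dehydrogenase, (0.78 ± 0.16), and DYL1, a dormancy-associated gene, (0.81 ± 0.12). The best-known marker of sugar starvation, ASN1 (asparagine synthetase), had 118, 166 and 254 CPM in low light, against 130, 233 and 331 CPM in normal light, values that overlapped and did not pass (-0.37 ± 0.29, adjusted p = 0.343). The dark-inducible (DIN) genes of the list were divided. DIN11, an oxygenase gene, had 1.17, 1.65 and 1.1 CPM in low light, against 0.0509, 0.39 and 0.272 CPM in normal light (2.44 ± 0.75, adjusted p = 0.0205), the largest change of the list. Its light levels did not overlap, but it was not called without the second low-light or the first or the third normal-light library (adjusted p = 0.0536 to 0.0736). DIN4, of branched-chain amino acid breakdown, rose (0.40 ± 0.14) and was not called without the second or the third low-light or the first or the second normal-light library or with limma-voom or the 6 wild-type libraries alone (log2 0.24 to 0.44, adjusted p = 0.0503 to 0.211). DIN9 fell (-1.24 ± 0.16), and DIN10 (0.35) and DIN1 (0.03) did not pass.

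Most circadian clock genes differed between the light levels. The hour of harvest is not given for either level, so its part in these values was not tested. Of 27 clock genes, 10 rose and 12 fell, with a median of -0.14. The genes of the morning-phased MYB factors were lower in low light. LHY had 50.4, 53.1 and 47 CPM in low light, against 284, 285 and 245 CPM in normal light (-2.43 ± 0.10, adjusted p = 1.34e-09), and CCA1 had 63.9, 71.2 and 71.2 CPM in low light, against 191, 208 and 186 CPM in normal light (-1.50 ± 0.08, adjusted p = 1.16e-08). RVE1 fell (-2.15 ± 0.12), and RVE8, an activator of evening genes, (-1.71 ± 0.10).

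Several genes of later phases were higher, though not all of those listed. PRR7 had 93.9, 104 and 112 CPM in low light, against 22.8, 33.2 and 33.5 CPM in normal light (1.79 ± 0.12, adjusted p = 1e-07). PRR5 had 3.47, 3.49 and 5.26 CPM in low light, against 0.407, 1.11 and 0.97 CPM in normal light (2.26 ± 0.30, adjusted p = 4.24e-05), and both encode repressors of CCA1 and LHY. FKF1, a blue-light receptor of the flowering pathway that was near 1 CPM even in low light, had 0.951, 0.923 and 1.02 CPM in low light, against 0.0509, 0.167 and 0.155 CPM in normal light (2.87 ± 0.49, adjusted p = 0.000433), and its partner GI had 46.2, 51.5 and 44.1 CPM in low light, against 21.7, 21.7 and 18.6 CPM in normal light (1.20 ± 0.09, adjusted p = 2.51e-07). In all of these the light levels were separated without overlap. TOC1, the core evening repressor, rose (0.43 ± 0.09). ZTL (-0.14), whose protein rather than its RNA is known to cycle, and PRR9 (0.20) did not pass. In PRR9, 41.1% of the 31-base words occur more than once in the genome. Of the evening complex and its relatives, ELF3 rose (0.47 ± 0.14), and LUX (-0.05) and ELF4 (0.39) did not pass. The rise of ELF3 was not called without the third low-light or the first normal-light library (log2 0.29 to 0.37, adjusted p = 0.076 to 0.0907). BOA, a homologue of LUX, fell, with 0.951, 0.264 and 0.339 CPM in low light, against 1.83, 1.39 and 1.55 CPM in normal light (-1.53 ± 0.45, adjusted p = 0.016), and was not called without the second or the third low-light or the first normal-light library (log2 -1.42 to -1.20, adjusted p = 0.0501 to 0.0769). Opposite-strand genes cover 48% of BOA and 38% of LUX. Among the outputs, GRP7 rose (0.82 ± 0.11), and COL2 fell (-1.63 ± 0.11), though a gene on the opposite strand covers 61% of COL2.

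The evening element, AAATATCT on either strand, is the sequence bound by CCA1, LHY and the RVE factors. It occurred in the 250 bases before the gene start in 76 of 558 promoters of genes at least 2-fold higher in low light (13.6%), in 39 of 882 of genes at least 2-fold lower (4.42%), and in 998 of 20517 of all genes tested (4.86%). These shares are a description without a test. Of the 27 clock genes, 9 held it. Below are the promoters of FKF1 (chr1:25508389-25508638, plus strand) and PRR5 (chr5:8358547-8358796, minus strand), chosen after their values were seen as clock genes that rose, and of AT4G19430 (chr4:10599183-10599432, minus strand), chosen by rule as the largest change with the element. They are RefSeq sequence of the TAIR10.1 build, and capitals mark the element.
FKF1: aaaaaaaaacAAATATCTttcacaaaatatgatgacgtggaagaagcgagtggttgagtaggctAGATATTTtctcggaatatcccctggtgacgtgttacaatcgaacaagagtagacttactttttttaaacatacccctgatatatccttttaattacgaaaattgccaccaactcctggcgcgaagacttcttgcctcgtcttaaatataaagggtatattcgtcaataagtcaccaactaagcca
PRR5: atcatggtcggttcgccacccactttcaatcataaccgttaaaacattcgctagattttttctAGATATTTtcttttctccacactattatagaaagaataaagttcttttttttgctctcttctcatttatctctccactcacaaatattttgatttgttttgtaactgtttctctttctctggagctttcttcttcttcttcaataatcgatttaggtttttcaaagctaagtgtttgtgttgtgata
AT4G19430: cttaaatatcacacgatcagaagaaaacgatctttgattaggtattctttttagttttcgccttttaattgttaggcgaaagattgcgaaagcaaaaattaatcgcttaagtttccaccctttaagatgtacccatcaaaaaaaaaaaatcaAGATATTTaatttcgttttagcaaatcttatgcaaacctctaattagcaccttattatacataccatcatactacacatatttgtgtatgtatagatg
FKF1 carries the element in 2 places, in opposite orientations, and it rose, whereas AT4G19430 carries it in 1 place and fell, so a match did not go with a single direction. The I-box, GATAAG, was in 19.2% of promoters at least 2-fold higher, 12.4% at least 2-fold lower and 12.4% of all tested. The G-box, CACGTG, was in 8.06% of promoters at least 2-fold higher, 10.4% at least 2-fold lower and 7.22% of all tested.

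**Figure D4:**
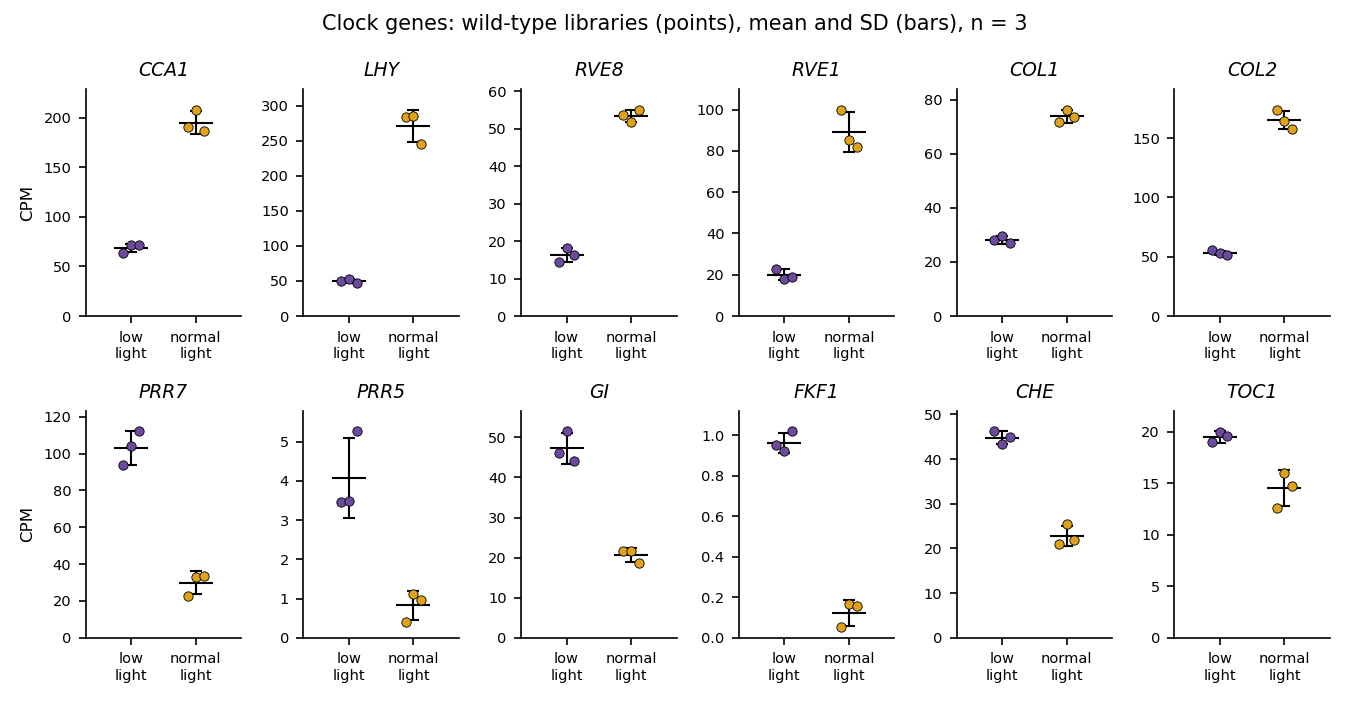
CPM (vertical axes, starting at 0) in each wild-type library for 12 clock genes, with points for libraries and bars for the mean and SD (n = 3 each), low light left of normal light. LHY, CCA1, RVE1 and RVE8 are lower in all low-light libraries, and PRR7, PRR5, GI and FKF1 are higher in all of them.

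Photoreceptor genes shifted little in size. Of 11, 5 rose and 2 fell, with a median of 0.18. UVR8, the ultraviolet-B receptor, rose (0.64 ± 0.08), the phototropin PHOT1 (0.54 ± 0.09) and the phytochrome PHYD (0.43 ± 0.10), while CRY3 fell (-0.56 ± 0.09). PHYB (0.03) and CRY1 (0.18) did not pass. The rises numbered 3 without the second or the third low-light library or the first normal-light library. The falls numbered 1 without the first or the third low-light library or without the first or the second normal-light library.

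Downstream of the receptors, 6 of 22 signalling genes rose and 9 fell, with a median of -0.11. HY5, the factor that promotes growth in the light, had 11.3, 6.19 and 9.5 CPM in low light, against 21.1, 22 and 20.8 CPM in normal light (-1.23 ± 0.17, adjusted p = 5.62e-05). HYH, its homologue, had 12.5, 10.5 and 8.74 CPM in low light, against 34.5, 26.5 and 29 CPM in normal light (-1.48 ± 0.20, adjusted p = 4.91e-05), and RUP2, which switches UVR8 off, fell (-1.50 ± 0.15). The 3 genes were lower in every low-light library. Genes of the COP1 and SPA complex, which removes HY5 in the dark, fell as well, COP1 (-0.52 ± 0.09), SPA3 (-0.73 ± 0.10) and SPA4 (-0.97 ± 0.14). SPA1 (-0.02) and PIF5 (-0.15) did not pass. PIF3, a phytochrome-interacting growth factor, rose (0.77 ± 0.11), and BBX22, a B-box factor acting with HY5, had 23.3, 24.8 and 20.9 CPM in low light, against 7.64, 8.02 and 7.14 CPM in normal light (1.60 ± 0.10, adjusted p = 2.8e-08).

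Genes induced by canopy shade did not move as a set, with 4 of 18 rising and 8 falling at a median of -0.40. Without the third low-light library, 2 rose. IAA29, a repressor of auxin response, had 8.44, 7.51 and 11.9 CPM in low light, against 1.68, 2.28 and 2.48 CPM in normal light (2.09 ± 0.30, adjusted p = 0.000101). HFR1, a brake on the shade response, had 4.87, 8.24 and 6.36 CPM in low light, against 17.2, 18 and 19.2 CPM in normal light (-1.49 ± 0.19, adjusted p = 3.55e-05), and YUC2, of auxin synthesis, fell (-1.28 ± 0.27). PIL1, another early shade gene, had 0.391, 0.264 and 0.0848 CPM in low light, against 0.713, 0.612 and 0.854 CPM in normal light (-1.45 ± 0.43, adjusted p = 0.0164), a fall that was not called without the second or the third low-light or the third normal-light library or with DESeq2 (log2 -1.48 to -1.13, adjusted p = 0.0517 to 0.0645). ATHB2, the classic marker of a low ratio of red to far-red light, had 7.44, 7.31 and 7.04 CPM in low light, against 7.54, 8.18 and 7.26 CPM in normal light, values that overlapped (-0.07 ± 0.16, adjusted p = 0.763). IAA19 (-0.05) did not pass either.

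Of 24 flavonoid genes, 1 rose and 14 fell, with a median of -0.64. CHS, chalcone synthase at the entry to the pathway, had 158, 126 and 114 CPM in low light, against 441, 452 and 380 CPM in normal light (-1.67 ± 0.11, adjusted p = 5.8e-08). FLS1, flavonol synthase, had 28.7, 22.5 and 22.5 CPM in low light, against 84.9, 72.8 and 54 CPM in normal light (-1.51 ± 0.17, adjusted p = 1.05e-05), and the glucosyltransferase gene UGT78D2 fell (-1.17 ± 0.10). MYB12 and MYB111, activators of flavonol synthesis, fell (-1.33 ± 0.19 and -1.60 ± 0.33). 4CL3, a coumarate ligase that feeds the pathway, fell (-1.64 ± 0.19). F3H fell (-1.61 ± 0.13), and a gene on the opposite strand covers 94% of it. MYBL2, a repressor of anthocyanin synthesis, was the 1 gene that rose, with 90.4, 90.4 and 90.2 CPM in low light, against 26.5, 32.1 and 24.4 CPM in normal light (1.71 ± 0.09, adjusted p = 1.24e-08). The late anthocyanin genes DFR (0.28) and LDOX (0.23) and the regulator genes TTG1 (0.07) and EGL3 (-0.05) did not pass.

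Among hormone groups, the type-A response regulators of cytokinin, fast transcriptional readouts of that hormone, fell in 5 of 6 cases with a median of -1.29 and 0 rises. ARR15 had 1.68, 1.12 and 0.848 CPM in low light, against 8.96, 12.4 and 13.2 CPM in normal light (-3.19 ± 0.30, adjusted p = 1.84e-06), and ARR7 had 10.2, 11.1 and 11.9 CPM in low light, against 33, 42.3 and 49.9 CPM in normal light (-1.92 ± 0.22, adjusted p = 1.01e-05). ARR6 fell (-1.48 ± 0.11), ARR4 (-1.11 ± 0.12) and ARR5 (-0.95 ± 0.14), and ARR16 (0.15) did not pass. In the shade list, CKX5, which breaks cytokinin down, fell as well (-1.01 ± 0.26), with 23% of its length under a gene on the opposite strand.

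For jasmonate, 2 of 25 genes rose and 12 fell, with a median of -0.38. The rises numbered 1 without the second low-light or the first normal-light library and 4 without the second normal-light library. VSP2, a storage protein induced by jasmonate, had 3.58, 4.42 and 2.54 CPM in low light, against 17.9, 34.3 and 22.6 CPM in normal light (-2.80 ± 0.31, adjusted p = 9.09e-06), and MYC2, the master factor of the response, had 21.1, 24.4 and 22.7 CPM in low light, against 32.8, 79.6 and 43 CPM in normal light (-1.18 ± 0.31, adjusted p = 0.00808). The light levels did not overlap in either gene, but an opposite-strand gene covers 99% of MYC2. JAZ7, the largest fall of the list, had 0.559, 0.264 and 0.17 CPM in low light, against 0.917, 8.07 and 3.8 CPM in normal light (-3.55 ± 0.85, adjusted p = 0.00503), without overlap, and was not called with limma-voom (log2 -3.14, adjusted p = 0.0769). VSP1, a second storage protein gene, fell (-2.28 ± 0.38). LOX2, a lipoxygenase of jasmonate synthesis, fell (-1.17 ± 0.31), and the JAZ repressor genes JAZ5, JAZ6 and JAZ9 (-2.96 ± 0.53, -1.38 ± 0.24 and -1.63 ± 0.19). AOS (0.08) and ACX1 (0.08), also of synthesis, did not pass.

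Salicylate defence gave 4 rises and 3 falls among 14 tested, and 2 rises without the second low-light or the first normal-light library. ACD6, a regulator of salicylate defence and cell death, fell (-1.72 ± 0.39), PBS3, of salicylate synthesis, (-1.49 ± 0.39) and WRKY70 (-1.29 ± 0.32), while ICS1, the first enzyme of synthesis, rose (0.53 ± 0.10), as did PR5, a pathogenesis-related protein (0.83 ± 0.17). PAD4 (-0.13) and EDS5 (-0.15), of signalling and synthesis, did not pass. Abscisic acid gave 1 rise and 2 falls among 9 (33.3% called, near the 34.2% over all genes tested). All were in phosphatases that restrain the pathway. ABI1 rose (0.52 ± 0.11), and HAB1 and PP2CA fell (-1.24 ± 0.09 and -0.80 ± 0.09). RD26 (0.25) and the phosphatase gene ABI2 (-0.17) did not pass. Gibberellin gave 2 rises and 4 falls among 13, with GA3OX1, of the last step of synthesis, (-0.80 ± 0.14), the DELLA repressor gene RGL1 (-0.78 ± 0.17) and the receptor gene GID1C (0.47 ± 0.12). GA2OX2, of gibberellin breakdown, fell (-0.78 ± 0.23) and was not called without the third low-light or the third normal-light library (log2 -0.63 to -0.60, adjusted p = 0.0747 to 0.0879), and the receptor genes GID1A (0.32) and GID1B (-0.14) did not pass. In gibberellin, 1 rose without the second or the third low-light library or the first normal-light library.

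Of 19 heat shock proteins and co-chaperones, 0 rose and 15 fell, with a median of -2.73. No leaf temperature is given for either light level. The small heat shock proteins, which keep unfolding proteins soluble, had the largest falls. HSP17.6II had 0.336, 0.461 and 0.0848 CPM in low light, against 56.3, 40.8 and 30.2 CPM in normal light (-7.05 ± 0.34, adjusted p = 3.5e-09). AT1G53540, of the same family, had 0.28, 0.132 and 0.254 CPM in low light, against 21.6, 23.5 and 18.7 CPM in normal light (-6.53 ± 0.34, adjusted p = 6.32e-09), and HSP17.6A had 0.168, 0.132 and 0.0848 CPM in low light, against 12, 10.9 and 7.95 CPM in normal light (-6.19 ± 0.42, adjusted p = 7.77e-08). All 3 were under 1 CPM in every low-light library. HSP90.1, the inducible cytosolic HSP90, had 15.6, 14 and 16.7 CPM in low light, against 165, 237 and 172 CPM in normal light (-3.64 ± 0.18, adjusted p = 5.57e-09), and ROF2, an immunophilin of the heat response, had 10.7, 9.69 and 10.9 CPM in low light, against 113, 147 and 114 CPM in normal light (-3.58 ± 0.17, adjusted p = 2.93e-09). HSA32, needed to retain acquired heat tolerance, fell (-2.01 ± 0.15) and HSP101, the disaggregase, (-1.27 ± 0.23). HSP17.4 had 0.727, 0.659 and 0.339 CPM in low light, against 44.3, 39.8 and 34.6 CPM in normal light (-6.02 ± 0.21, adjusted p = 1.05e-10), a gene that another on the opposite strand covers over 68% of its length. BAG6 (0.35) and HSP70B (-0.15) did not pass, whereas HSP70 fell (-3.54 ± 0.22). Without the third low-light library, 1 gene of the list rose.

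The promoter of HSP17.4 (chr3:16984868-16985117, minus strand, TAIR10.1 from RefSeq) is shown as the member with the largest fall that holds a heat shock element free of a neighbouring gene, and capitals mark the 2 matches.
HSP17.4: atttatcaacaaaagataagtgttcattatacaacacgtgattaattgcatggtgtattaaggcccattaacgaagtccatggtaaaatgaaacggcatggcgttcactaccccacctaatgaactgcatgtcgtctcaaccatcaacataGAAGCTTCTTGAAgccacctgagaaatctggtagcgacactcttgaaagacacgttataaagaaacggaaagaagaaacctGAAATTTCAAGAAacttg
The heat shock element was searched on both strands as 3 units, GAA and its reverse complement in turn, each parted by any 2 bases, since heat shock factors bind such inverted repeats. It was in 9 of 882 promoters of genes at least 2-fold lower (1.02%), 5 of 558 of genes at least 2-fold higher (0.896%), and 85 of 20517 of all tested (0.414%). In the list 2 of 19 promoters held it, and the absence of these letters elsewhere says nothing of the factors.

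The heat shock factors themselves were divided, with 4 of 14 rising and 4 falling. HSFA7A had 16.9, 18 and 15.9 CPM in low light, against 7.23, 6.57 and 6.91 CPM in normal light (1.30 ± 0.19, adjusted p = 9.47e-05), and MBF1C, a coactivator of the heat response, had 19.8, 19.6 and 20 CPM in low light, against 42.2, 53.5 and 36.9 CPM in normal light (-1.15 ± 0.20, adjusted p = 0.000537). HSFA1B, one of the master activators, rose (0.77 ± 0.19), and HSFB1 fell (-0.64 ± 0.11). HSFA2, which amplifies the heat response, fell (-1.22 ± 0.34) and was not called without the second normal-light library (log2 -0.74, adjusted p = 0.0595). HSFB2B rose (0.81 ± 0.17), with 28% of its length under a gene on the opposite strand. A gene on the opposite strand covers 23% of MBF1C. HSFA1D (-0.31) and HSFB2A (-0.62) did not pass. The factors thus showed no common direction beside the 15 falls among the chaperones.

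Nutrient genes were divided, and several of their calls did not hold in all alternatives. The 3 genes of adenosine phosphosulfate reductase, the committed step of sulfate reduction, all fell. APR1 had 58.4, 52.2 and 40.6 CPM in low light, against 134, 122 and 97.8 CPM in normal light (-1.22 ± 0.13, adjusted p = 6.24e-06), APR3 fell (-1.20 ± 0.16), and APR2 (-1.79 ± 0.22), the last overlapped over 43% of its length by a gene on the opposite strand. Among 12 iron genes, 3 rose and 6 fell, with a median of -0.18. BHLH100 and BHLH39, which partner FIT in iron uptake, had 1.9, 0.198 and 1.7 CPM in low light, against 5.7, 7.46 and 6.71 CPM in normal light (-2.38 ± 0.41, adjusted p = 0.000464) and 2.91, 1.05 and 3.48 CPM in low light, against 5.91, 8.46 and 8.3 CPM in normal light (-1.63 ± 0.27, adjusted p = 0.000338). FIT itself rose (0.71 ± 0.15), and BTS, a ligase that limits the response, fell (-0.52 ± 0.09). FRO2, the root ferric reductase, was at 0.95 and did not pass, nor did the ferritin gene FER3 (0.22). BHLH101, another gene of the BHLH38 group, fell (-1.11 ± 0.39) and was not called without the second or the third low-light or the first, the second or the third normal-light library or with limma-voom (log2 -1.15 to -0.91, adjusted p = 0.0533 to 0.146).

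Of 7 nitrogen genes, 2 rose and 2 fell. NIA1, nitrate reductase, rose (0.69 ± 0.15), and GLU1, the ferredoxin-dependent glutamate synthase of leaves that also reassimilates photorespiratory ammonium, fell (-0.36 ± 0.08). The nitrate transporter gene AT1G08090 rose (1.57 ± 0.44) and was not called without the first low-light library (log2 1.15, adjusted p = 0.0943). GLN2, the glutamine synthetase of chloroplasts, fell (-0.22 ± 0.08) and was not called without the first, the second or the third low-light or the first or the second normal-light library or with no filter on low counts or the 6 wild-type libraries alone (log2 -0.23 to -0.17, adjusted p = 0.0505 to 0.132). NIA2 (-0.30) and NIR1 (-0.03) did not pass. The rises numbered 1 without the first low-light library, and the falls 1 without any single library except the third of normal light. Of 12 cold-regulated genes, 2 rose and 3 fell, led by GOLS2 and GOLS1, galactinol synthases of raffinose synthesis that also respond to heat. GOLS2 had 0.839, 0.395 and 0.763 CPM in low light, against 5.3, 9.19 and 6.21 CPM in normal light (-3.35 ± 0.39, adjusted p = 1.33e-05), and GOLS1 had 19.1, 15.7 and 11.2 CPM in low light, against 62.2, 83.7 and 80.8 CPM in normal light (-2.28 ± 0.15, adjusted p = 5.79e-08). LTI30, a dehydrin, rose (1.07 ± 0.17) and was the 1 rise without the first low-light or the first or the third normal-light library. The galactinol synthase falls were the largest of the list, KIN2 fell (-0.79 ± 0.17), and COR47 (0.24) and ERD10 (0.13) did not pass.

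In the list of DNA replication and mitosis 7 of 32 rose (21.9%) and 1 fell (3.12%), against 16.6% and 17.6% over all genes tested. The list had a median of 0.22 and 0 changes of 2-fold or more. The falls numbered 2 without the second normal-light library and 0 without any other single library except the first of low light. MCM4 and MCM7, of the replicative helicase, rose (0.66 ± 0.11 and 0.48 ± 0.11), and MCM6 rose (0.52 ± 0.15) but was not called without the first low-light or the second or the third normal-light library (log2 0.42 to 0.47, adjusted p = 0.0521 to 0.0786). The histone gene AT3G27360 rose (0.51 ± 0.13), and 2 others, AT5G65360 (0.21) and AT1G09200 (0.18), did not pass.

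Ribosomal protein genes showed 1 rise and 47 falls among 305, a median of -0.12. The falls make up 15.4% of the family, under the 17.6% over all genes tested. Without the second low-light library 25 fell, without the first normal-light library 26, without the third 29 and without the second 86. Membership rests on the product text of the annotation alone, which can take in proteins that are not part of the ribosome. The largest fall among the members was AT3G28500 (-1.88 ± 0.51), and AT5G16200 (-1.33 ± 0.20), AT5G39850 (-1.17 ± 0.14) and AT1G68660 (-0.93 ± 0.10) followed. The 2 most abundant members that did not pass were LOS1 (0.11), annotated also as an elongation factor, and RP1 (-0.02).

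Cell wall and auxin growth families were divided. Of 61 small auxin-up RNA (SAUR) genes, 7 rose and 25 fell, with a median of -0.49. AT3G53250 had 0.559, 2.37 and 1.36 CPM in low light, against 0.153, 0 and 0.233 CPM in normal light (3.27 ± 0.63, adjusted p = 0.00103), and AT5G10990 had 0.168, 0.923 and 0.763 CPM in low light, against 2.29, 1.45 and 1.86 CPM in normal light (-1.65 ± 0.42, adjusted p = 0.00691). The first gene was higher and the second lower in every low-light library. AT1G20470 fell (-1.93 ± 0.16), with 73% of its length under a gene on the opposite strand. AT2G37030 rose (1.59 ± 0.45) and was not called without the second low-light or the third normal-light library (log2 1.25 to 1.44, adjusted p = 0.0568 to 0.0691). AT5G50760 (-0.16) and AT4G34760 (-0.25) did not pass. Of 22 expansins, which loosen walls, 5 rose and 8 fell. The falls numbered 4 without the second low-light or the first normal-light library and 5 without the third of either light level. The rises numbered 3 without the first low-light or the second normal-light library. EXLB1 and EXPA5 fell (-1.59 ± 0.13 and -1.36 ± 0.20), and EXPA16 rose (0.91 ± 0.23). EXLA3 fell (-1.36 ± 0.47) and was not called without the first or the second low-light or the first or the third normal-light library or with DESeq2 or the 6 wild-type libraries alone (log2 -1.61 to -0.96, adjusted p = 0.0526 to 0.154), and EXPB3 (-0.04) and EXPA8 (-0.43) did not pass. Of 25 xyloglucan-modifying XTH genes, 4 rose (16%) and 5 fell (20%), near the shares over all genes, with XTH20 (1.48 ± 0.23), XTH15 (1.05 ± 0.12), 28% of it under a gene on the opposite strand, TCH4 (-1.01 ± 0.24) and XTH6 (-0.97 ± 0.12). XTH4 (0.23) and XTH7 (-0.14) did not pass.

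Of 134 receptor genes of the NLR type, which detect pathogen effectors inside the cell, 20 rose (14.9%) and 19 fell (14.2%), both under the shares of 16.6% and 17.6% over all genes tested. Falls numbered 12 without the first or the third low-light library, and rises 13 without the first normal-light library. RPP4 and RPP5, resistance genes against downy mildew on chromosome 4, rose (2.67 ± 0.12 and 1.47 ± 0.09), and AT4G16870 in the same stretch, a pseudogene in the annotation, had 28.5, 35.4 and 40 CPM in low light, against 1.99, 3.4 and 4.66 CPM in normal light (3.33 ± 0.23, adjusted p = 9.46e-08). Shared words make up 44.4% of RPP4 and 55.5% of RPP5, so reads may have been divided between the copies. SNC1 (AT4G16890), their neighbour, did not pass (0.09 ± 0.08). AT4G09430, low in all libraries, had 28 counts over the low-light libraries and 1 over the normal-light libraries, a ratio of low over normal light of 39.6 with a 95% counting interval of 6.54 to 1618. AT5G58120 fell (-1.76 ± 0.15), and AT4G19530 (-0.12) and AT1G61100 (0.21) did not pass.

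Of 171 cytochrome P450 genes, 27 rose (15.8%) and 41 fell (24%), against 16.6% and 17.6% over all genes tested. CYP78A7 rose (2.09 ± 0.36), and CYP71A25 (-3.07 ± 0.14), AT1G66540 (-2.16 ± 0.21) and CYP71B12 (-1.97 ± 0.14) fell, the last with 20.7% of its words shared. CYP86A2, of cutin synthesis, did not pass (-0.13), with 38% of its length under a gene on the opposite strand. Class III peroxidases gave 10 rises (17.2%, near the 16.6% over all genes tested) and 17 falls (29.3%, against 17.6%) among 58. The peroxidase gene AT5G64120 had 135, 154 and 91.7 CPM in low light, against 19.5, 20.8 and 26.2 CPM in normal light (2.51 ± 0.57, adjusted p = 0.00328), and AT2G18150 had 4.81, 3.23 and 2.04 CPM in low light, against 14.1, 14.3 and 19.4 CPM in normal light (-2.20 ± 0.30, adjusted p = 6.8e-05). The peroxidase genes AT1G49570 rose (2.29 ± 0.53) and AT5G47000 fell (-2.16 ± 0.20), and PRXR1 (0.23) and AT2G37130 (0.31) did not pass. Of 47 glutathione transferases, 11 rose (23.4%, against 16.6% over all genes tested) and 9 fell (19.1%, near the 17.6%). Without the first low-light library, 7 of them rose. GSTU25 and GSTU22 rose (1.38 ± 0.14 and 1.14 ± 0.16) and ERD9 fell (-1.46 ± 0.13). GSTF6 rose (1.74 ± 0.59) and was not called without the first or the second low-light or the first, the second or the third normal-light library or with DESeq2 or limma-voom (log2 1.64 to 1.81, adjusted p = 0.0526 to 0.0987). GSTU19 (0.20) and GSTL3 (-0.15) did not pass.

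Of 26 glucosinolate genes, 3 rose and 6 fell (34.6% called, near the 34.2% over all genes tested). Without the third low-light or the third normal-light library, 3 fell. CYP81F2, which modifies indole glucosinolates, had 10.6, 13.6 and 7.29 CPM in low light, against 2.29, 4.23 and 3.92 CPM in normal light (1.60 ± 0.35, adjusted p = 0.00246), and MAM1, of aliphatic chain elongation, rose (0.86 ± 0.10). UGT74B1, a glucosyltransferase of core synthesis, and MYB34, a regulator of the indole branch, fell (-0.72 ± 0.10 and -0.63 ± 0.13). CYP83A1 (0.08) and CYP83B1 (0.03) did not pass. Of 8 wax genes, 1 rose and 2 fell (37.5% called, near the 34.2% over all genes tested). The rise was lost without any single library other than the second of normal light. WSD1, the wax ester synthase of stems, had 0.168, 0.198 and 0.254 CPM in low light, against 3.31, 2.56 and 2.13 CPM in normal light (-3.68 ± 0.39, adjusted p = 6.58e-06), and CER1, of alkane synthesis, had 13.1, 10 and 10 CPM in low light, against 42, 33.7 and 27.9 CPM in normal light (-1.63 ± 0.18, adjusted p = 1.05e-05). The rise was CER4, a fatty acyl reductase of wax alcohols (0.90 ± 0.30), not called without the first, the second or the third low-light or the first or the third normal-light library (log2 0.78 to 0.95, adjusted p = 0.053 to 0.108). KCS6 (0.21) and CER3 (-0.17) did not pass. Of 7 flowering genes, 2 rose and 2 fell, and the falls numbered 1 without the first or the third low-light library and 0 without the second low-light or the second or the third normal-light library. SOC1, which promotes flowering, rose (0.76 ± 0.09), and FLM, which represses it, (0.60 ± 0.09). FT, the mobile flowering signal, had 1.06, 0.461 and 0.17 CPM in low light, against 1.17, 2.67 and 1.63 CPM in normal light (-1.56 ± 0.53, adjusted p = 0.0345) and was not called without the second or the third low-light or the second or the third normal-light library (log2 -1.64 to -1.21, adjusted p = 0.057 to 0.122). CO, which activates FT in long days, had 0.112, 0.198 and 0.763 CPM in low light, against 0.917, 0.835 and 0.97 CPM in normal light (-1.49 ± 0.53, adjusted p = 0.0401), with 67% of its length under a gene on the opposite strand, and was not called without the first or the second low-light or the first, the second or the third normal-light library or with DESeq2 (adjusted p = 0.0595 to 0.18). In neither gene did the light levels overlap, and SVP (0.04) and SPL3 (-0.41), 98% of it under such a gene, did not pass.

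Markers of cell types were examined because seedlings hold roots, leaves and vascular tissue in proportions that can change. None of 8 markers of root hairs and endodermis passed edgeR's test in either direction, among them PRP3 (-0.16) and ESB1 (-0.03), 85% of which lies under an opposite-strand gene, and their summed level was 102 to 147 CPM in low light and 120 to 148 CPM in normal light. Of 9 genes listed for stomata, 3 rose and 2 fell, with summed levels of 75.1 to 88.4 CPM in low light and 80 to 100 CPM in normal light. The list, its falls and its sums include STOMAGEN, which is a gene of the mesophyll and no marker of stomatal cells. STOMAGEN, a peptide of the mesophyll that promotes stomata, had 13.1, 12.7 and 12.7 CPM in low light, against 34.7, 20.2 and 35.2 CPM in normal light (-1.23 ± 0.21, adjusted p = 0.000377), and TMM, a receptor of stomatal spacing, rose (0.79 ± 0.11). EPF2, a peptide that limits stomatal number, rose (1.00 ± 0.26) and was not called without the third low-light library (log2 0.71, adjusted p = 0.0505). SPCH, the factor that starts the lineage, rose (0.67 ± 0.21) and was not called without the first or the third low-light or the second normal-light library (log2 0.55 to 0.64, adjusted p = 0.0583 to 0.0753). FAMA (-0.30) and MYB60 (-0.27) did not pass. Without the third low-light library 1 rose. All 3 cellulose synthase genes of secondary walls fell, CESA4 (-0.53 ± 0.11), CESA7 (-0.49 ± 0.12) and CESA8 (-0.53 ± 0.11). Their summed level was 42.3 to 45.5 CPM in low light and 61.9 to 65.6 CPM in normal light, without overlap.

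Genes encoded in the chloroplast were higher in 55 of 117 tested cases and lower in 1, with a median of 0.74. As with ribosomal RNA, their share of all counts was higher in every low-light library. Among 60 mitochondrial genes, 14 rose (23.3%) and 11 fell (18.3%), against 16.6% and 17.6% over all genes tested. The class annotated as ncRNA gave 3 rises and 25 falls among 98.

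The light response of atrx-2, from libraries that share no sample with the wild-type contrast, gave 6870 calls (33.1% of the genes tested). Both contrasts came from one fit and share its estimate of the spread. Of the 7113 genes called in wild type, 5182 were called in atrx-2, which is 72.9% of the wild-type calls and 75.4% of the atrx-2 calls. All but 3 of these had the same sign. Among the 1502 wild-type calls of at least 2-fold, 1267 (84.4%) were also called with the same sign in atrx-2. For AMY3 the log2 fold change came to 2.16 ± 0.08 in wild type, against 2.16 ± 0.08 in atrx-2. LHY gave -2.43 ± 0.10 in wild type, against -2.58 ± 0.10 in atrx-2, and CHS gave -1.67 ± 0.11 in wild type, against -1.47 ± 0.11 in atrx-2. The test of the difference between the genotypes called 1 gene, or 0.00481%, and 915 at an unadjusted p under 0.05. A p that misses the threshold does not show that the genotypes respond alike.

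**Figure D5:**
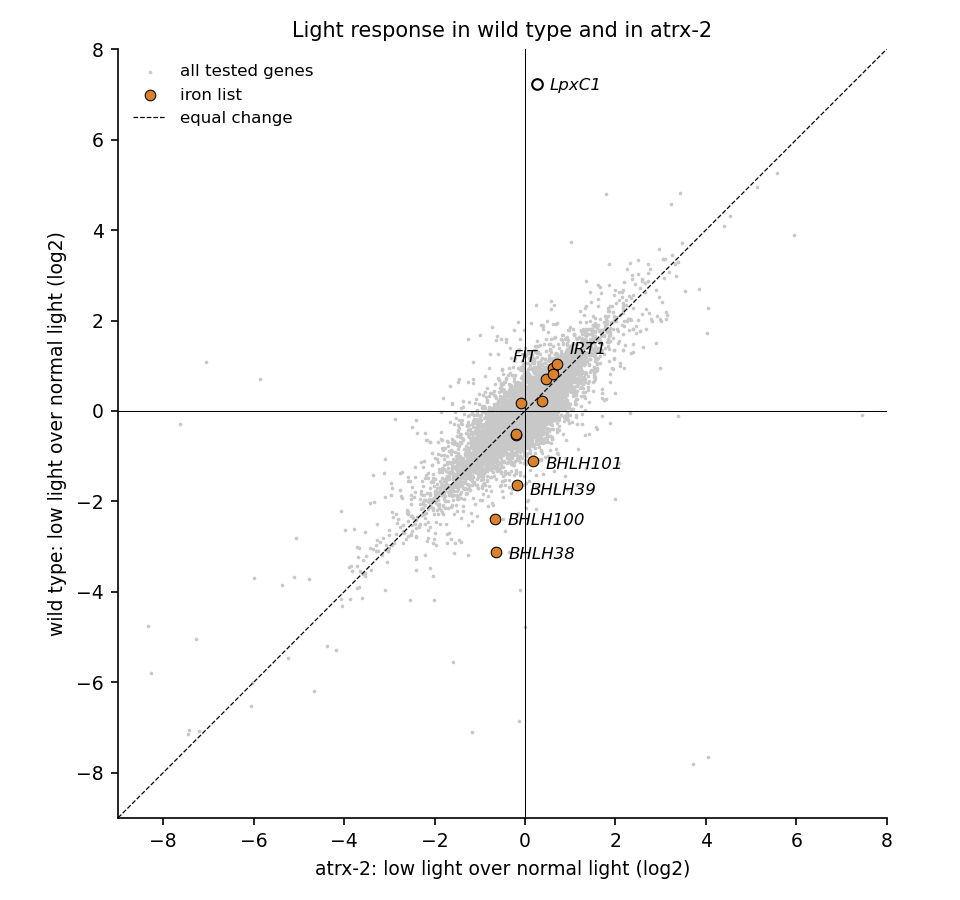
Log2 fold change of low over normal light in wild type (vertical axis) against that in atrx-2 (horizontal axis) for the 20783 genes tested, with 3 libraries in each of the 4 groups. Orange points are iron genes, the dashed line marks equal change, and BHLH38 (-3.13 in wild type and -0.63 in atrx-2) lies below it.

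The 1 gene called was BHLH38, of the same group of iron regulators. In wild type it had 1.23, 0.461 and 1.53 CPM in low light, against 8, 9.74 and 10.1 CPM in normal light (-3.13 ± 0.25, adjusted p = 3.36e-07). In atrx-2 it had 3.59, 3.85 and 3.13 CPM in low light, against 5.28, 6.11 and 4.85 CPM in normal light, with a smaller log2 value of -0.63 ± 0.21. The low-light libraries of wild type were lowest and its normal-light libraries highest among the 12, with those of atrx-2 between them. BHLH100 and BHLH39 fell in wild type and had log2 values of -0.66 ± 0.37 and -0.18 ± 0.25 in atrx-2, but their differences between the genotypes did not pass (-1.72 ± 0.56 and -1.45 ± 0.37, adjusted p = 0.978 for both). For BHLH38 the difference was -2.51 ± 0.33 with an adjusted p of 0.0461. It did not pass without the first low-light library (0.0878) or without the first (0.0711), the second (0.115) or the third (0.249) normal-light library of wild type. A gene on the opposite strand covers 32% of BHLH38.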

How the data were processed

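Total RNA of whole seedlings was sequenced as single 50-base reads on a shared flow cell, per the labels. For each library the authors deposited estimated counts per gene; the submitters' processing notes name kallisto 0.42, the TAIR10 build and DESeq2. Strand use is not given in the sources used here. Values that were not whole (12.3% to 13.9% of each table, tolerance 1e-06) were rounded before testing. Kallisto divides ambiguous reads among transcripts, so close copies are uncertain. The share of each gene's 31-base exon words that occur more than once in the genome, called shared words here, was therefore recorded. Copies outside annotated transcripts and repeats within the gene also count. Overlap with genes on the opposite strand was recorded as well. Totals were 13733302 to 23899191 per wild-type library, and chi-square values of 6.1 to 29.6 per gene between wild-type replicates left all of them as separate samples.

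The main test was run in edgeR 4.0.16 (R 4.3.3), with filterByExpr by group, TMM scaling, and a quasi-likelihood F test fitted to all 12 libraries in 4 groups (8 residual degrees of freedom, biological coefficient of variation 10.4%). The contrast was low minus normal light in wild type, two-sided, with Benjamini-Hochberg adjustment over the 20783 genes tested and calls at an adjusted p under 0.05. The SE of a log2 fold change is its size divided by the square root of F. Genes of 3 or fewer counts in a group are given as a count ratio with an exact 95% Clopper-Pearson interval, which covers counting error only. CPM were computed here from TMM-scaled library sizes. Names and coordinates came from the TAIR10.1 RefSeq annotation, which held 32835 of the 33602 loci, and are 1-based. Promoters are the 250 bases before the gene start.

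The genes and lists were chosen with earlier results of these data known, so they are described by counts and medians and no list was tested. Of 536 members in 33 lists, 34 were listed by locus alone and 12 had a symbol that the annotation lacks, all matched by locus, and 8 families came from the annotation's product text. The text names the 12 largest rises and falls among called genes of at least 5 CPM in the higher group without overlap, up to 4 called and 2 uncalled members of each list by size of change or by level, and the 5 genes of smallest interaction p. Other members named in the text were chosen after their values were seen. The alternatives were RLE and upper-quartile scaling, no filter on low counts, a filter of 5 CPM in 3 libraries, DESeq2 1.42.0, limma-voom (limma 3.58.1), a test against a 2-fold change, the 6 wild-type libraries alone, a replicate block, removal of organelle and ribosomal RNA genes, and leaving out each wild-type library.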

Additional observations from a re-analysis of the deposited data

Results flagged for a closer look

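The light response of BHLH38 differed between wild type and atrx-2 by a test of that difference, with a log2 value of -2.51 ± 0.33 (wild type minus atrx-2, 3 libraries a group, edgeR adjusted p = 0.0461). The direction was the same under every alternative run, with values of -2.14 to -2.77. The adjusted p was 0.0534 with a filter of 5 CPM in 3 libraries, 0.113 with limma-voom, 0.0803 with the replicate block and 3.34e-08 with DESeq2. The 4 genes of next smallest p did not pass in the main edgeR fit, at adjusted p of 0.545 for AT1G67105 and AT1G13609, 0.583 for AT2G14247 and 0.978 for AT1G47395. With DESeq2, AT1G67105 (adjusted p = 0.000439) and AT1G47395 (0.0136) passed. AT2G14247 passed in edgeR without the first low-light library of wild type (adjusted p = 0.00458).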

How the results depend on the processing

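Against 7113 calls, the alternatives gave 7115 with RLE scaling, 7124 with upper-quartile scaling, 6891 without a filter, 6227 with a filter of 5 CPM, 6548 with DESeq2, 7014 with limma-voom and 6583 with the 6 wild-type libraries. Scaling moved the median of all genes by at most 0.01. At least 2-fold rises and falls numbered 354 and 531 with the 5 CPM filter, which tested 15520 genes, and 142 and 272 under a test against a 2-fold change. Leaving out 1 wild-type library gave 5697 to 6736 calls (2687 to 3260 higher, 2957 to 3476 lower) and 536 to 603 rises and 838 to 905 falls of at least 2-fold. The interaction called 3 genes with DESeq2 (621 at an unadjusted p under 0.05), 0 with limma-voom (901), 0 with the 5 CPM filter (653), 0 with the replicate block (1171) and 0 to 1 without a library. Whether replicate numbers pair the samples was not settled. Between the light levels, deviations of same-numbered wild-type libraries correlated at 0.04, 0.05 and 0.06, and those of differently numbered ones at -0.06 to 0. The light contrast with a replicate block called 7540 genes, or 7269 with the 6 wild-type libraries. Of 178 called genes named by rule, 157 kept their call in every alternative that tested them. Of 255 named genes, 0 changed sign where either fit called the gene, and sign changes without a call were not counted. The test against a 2-fold change was left out of these counts and of those of the lists. Of 1968 recomputed counts and medians of lists, 105 moved past the limits used. Library totals limit the precision of genes under about 1 CPM, and intervals of counts cover counting error only.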

Other observations

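In a cluster of lipid transfer protein genes on chromosome 4, chosen after the values were seen, 3 of 4 genes rose in low light. Shared words were not recorded for these neighbours of one family, so how reads were divided among them is not known. EARLI1 (AT4G12480) averaged 142 CPM in low light and 22.2 CPM in normal light (log2 2.68 ± 0.46, adjusted p = 0.000472). AZI1 (AT4G12470), known for its part in systemic defence priming, averaged 130 CPM in low light and 26 CPM in normal light (2.32 ± 0.49, adjusted p = 0.00201). AT4G12500 rose (2.22 ± 0.43), and AT4G12490 had a log2 value of 1.80 ± 0.67 with an adjusted p of 0.0505. The same genes changed in atrx-2 by 2.89 for EARLI1, 1.88 for AZI1, 2.16 for AT4G12500 and 2.31 for AT4G12490, each past the threshold there.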
